A study of Mus musculus with 21 samples.

Results

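Aortic valves of XCT790-treated, stenotic N1het mice (3 libraries) were compared with valves of wild-type mice (WT, 4 libraries) across all genes. The 7 libraries were chosen by their titles, out of 21 in the series. The WT mice carried both Notch1 alleles, had healthy valves and received solvent by the same route and on the same schedule as the treated mice. The N1het mice carried 1 Notch1 allele, had aortic valve stenosis, and received XCT790 at 5 mg/kg/day by daily injection into the peritoneum. In both groups treatment lasted 4 weeks and started at 4 weeks of age. All mice of both groups were Terc-/- of generation 2, that is, without the RNA that telomerase copies into telomeres, so the WT valves were also valves of telomerase-deficient animals. Genotype, disease and agent all differ between these groups and cannot be told apart in this comparison. Another 14 libraries served to estimate the spread and for values side by side: N1het healthy valves after solvent (6) or XCT790 (5), and N1het stenotic valves after solvent (3). Whether the libraries of a group came from different animals is not stated, and each p-value therefore reflects only how much these libraries varied.

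Notch1 is a cell surface receptor that is cut when a neighbouring cell presents a ligand, and its inner part then acts with the DNA-binding protein RBPJ on target genes of the Hes and Hey families. Loss of 1 copy of the human gene is known to cause aortic valve disease with calcification and narrowing, and mice with 1 copy develop it more readily when their telomeres are short. XCT790 lowers the activity of ERRα, as an inverse agonist. This nuclear receptor, the product of Esrra, activates genes of mitochondrial respiration and fatty acid oxidation. The aortic valve consists mainly of interstitial cells in a matrix of collagen, proteoglycans and elastin, covered by endothelium, with resident macrophages and some melanocytes.

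The 7 libraries differed in makeup within both groups, which bears on every result below. Pairs of libraries correlated no better within a group (median r = 0.791, 9 pairs) than between the groups (0.816, 12 pairs). Depth ran from 8.4 to 21.5 megareads (M reads) in WT and from 9.8 to 17.7 M in the treated stenotic valves. A WT library listed 21.1% to 26.7% of genes at 0, and a treated one 12.2% to 25.4%. Mean marker levels are given as the mean log2(FPKM + 1) over a list, where FPKM is the number of fragments scaled by gene length and by library size. Valve interstitial and fibroblast markers were high in all 7 libraries, at 7.07 to 7.37 in WT and 6.83 to 7.36 in the treated stenotic valves, and endothelial markers lay at 4.57 to 5.06 and 4.55 to 5.46, so markers of the labelled tissue were present throughout. Heart muscle cell markers lay at 1.59, 0.93, 2.62 and 5.54 in WT 1 to 4 and at 5.53, 2.51 and 1.98 in treated stenosis 1 to 3, and the summed FPKM of the 24 genes ran from 110 to 4130 in WT and from 253 to 2800 in the treated group. Smooth muscle genes were likewise highest in WT 4 (7.24) and treated stenosis 1 (6.46), against 3.01 to 4.76 in the other 5 libraries. These 2 libraries therefore hold muscle RNA, 1 in each group, and the counts that lead each paragraph were also computed without both.

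Treated stenosis 1 stood apart in one further respect. Its mesothelial markers, which belong to the cell layer that lines the pericardium, had a mean of 6.70, against 0.01 and 0.03 in the other 2 treated libraries and 0.01, 0.03, 0.26 and 2.48 in WT. Upk3b, a membrane protein of such cells, was at 459 FPKM there and at 0.0241 and 0 in treated stenosis 2 and 3. Without treated stenosis 1, 0 of 8 mesothelial markers stood above WT, where 8 of 8 did with it. Red blood cell markers were also highest there (7.05, against 1.82 and 1.66 in the other treated libraries and 3.55 to 5.23 in WT). Over the 3 of 15 lymphocyte markers tested, the means were 0.69, 1.27 and 1.38 in the treated libraries. They were 3.89, 0.64, 2.59 and 0.01 in WT 1 to 4, so the groups overlapped, and 1 marker stood higher and 2 lower. Nkg7 was listed at 0 in all 3 treated libraries, and at 45.6, 0, 5.61 and 0 FPKM in WT. Cd4 ran the other way, at 1.83, 13.1 and 11.5 FPKM in the treated libraries against 7.1, 2.76, 6.33 and 0.0295 in WT. The part of these cells in the results below was not tested beyond the values given.

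**Figure D1:**
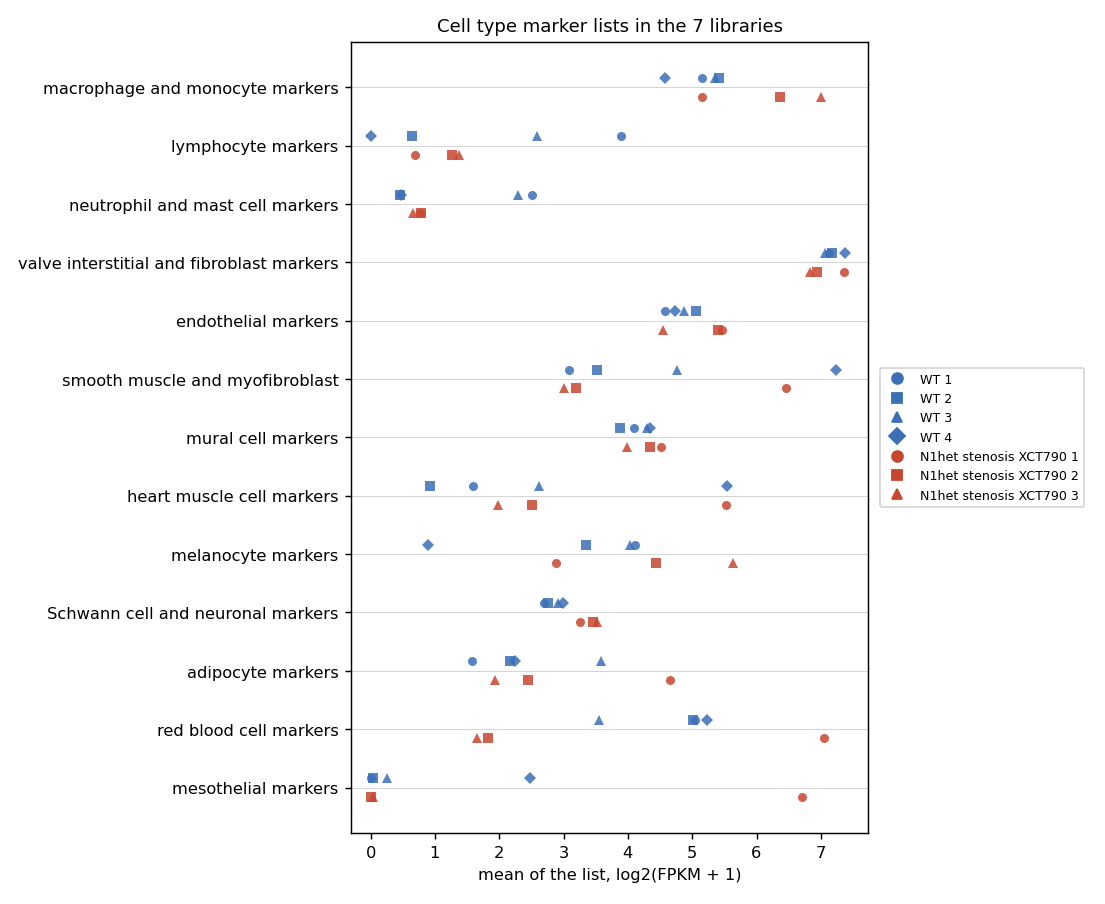
Mean log2(FPKM + 1) of 13 cell type marker lists (x axis) in each of the 7 libraries, with blue symbols for WT and red symbols for XCT790-treated stenotic N1het valves; each symbol is 1 library. Heart muscle and smooth muscle markers are highest in WT 4 and treated stenosis 1, mesothelial markers in treated stenosis 1 (6.70), and macrophage markers in treated stenosis 3 (7.01).

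No gene passed the threshold in the comparison. Of 14966 genes tested with limma on log2(FPKM + 1), 0 (0.0%) had an adjusted p under 0.05, and 0 did with limma voom on the recovered reads. At an unadjusted p under 0.05, 1301 genes (8.69%) differed: 1012 (6.76%) stood higher in the treated stenotic valves and 289 (1.93%) lower. With voom 1504 genes (10%) did, 1226 higher and 278 lower. Every WT library lay below every treated one for 784 genes (5.24%) and above for 245 (1.64%). The deposited scale itself leaned upward, with a median log2 difference over all genes of 0.166 and 61.6% of genes above 0. After median-of-ratios scaling the median was 0.048, a shift larger than 0.1, and the genes at an unadjusted p under 0.05 were 699 higher and 530 lower. The share of higher genes among them was 77.8% on the deposited scale and 56.9% after rescaling. Counts for gene groups are therefore read against 6.76% higher, 1.93% lower and a median of 0.166, and a gene is described by its values, without a claim of change.

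Notch1 (ENSMUSG00000026923), the gene with 1 allele missing in the treated group, was at 46.5, 33.6, 26.6 and 28.7 FPKM in WT and at 24.1, 35.6 and 20.9 in the treated stenotic valves. The groups overlapped, and the log2 difference was -0.33 ± 0.29 (SE; limma adjusted p = 0.768). A loss of 1 allele was not detectable in the Notch1 level at this spread. Esrra (ENSMUSG00000024955), the receptor that XCT790 acts on, was low in all libraries, at 1.83, 2.33, 3.46 and 2 FPKM in WT and at 1.98, 2.1 and 1.64 in the treated group (log2 difference -0.21 ± 0.39, adjusted p = 0.916). Terc is not listed in the table, so the shared telomerase deletion could not be checked.

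The gene of smallest p was Dgcr6 (ENSMUSG00000003531), from the chromosome region deleted in DiGeorge syndrome. It was at 0.716, 1.45, 0.638 and 0.0796 FPKM in WT 1 to 4 and at 5.54, 9.16 and 15.4 in treated stenosis 1 to 3, with no overlap. The log2 difference was 2.64 ± 0.44 and the adjusted p 0.0865. Dgcr6 passed 0.05 in 4 of the alternative settings, with adjusted p from 0.0352 to 0.0493, among them the fit without treated stenosis 1 (0.0377), and its adjusted p ran up to 0.661 in the others. The other N1het groups, which share the WT libraries as their control, stood above WT by 1.46 (healthy, solvent), 1.72 (healthy, XCT790) and 1.97 (stenosis, solvent).

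Nceh1 (ENSMUSG00000027698), a hydrolase that frees cholesterol from its esters, was at 4.45, 2.56, 3.62 and 1.58 FPKM in WT and at 10.3, 14.2 and 16.8 in the treated stenotic valves (1.89 ± 0.37, adjusted p = 0.243). Ebi3, a subunit shared by the cytokines IL-27 and IL-35, was at 0, 0, 1.24 and 1.19 FPKM in WT and at 8.86, 14.9 and 22.4 in the treated group (3.37 ± 0.68). All 3 treated libraries lay above all WT libraries for both genes. Nceh1 also stood above the same WT libraries in the other N1het groups, by 1.02 (healthy, solvent), 1.39 (healthy, XCT790) and 2.14 (stenosis, solvent). Lyz1, a lysozyme of phagocytes, was at 3.93, 1.69, 0.526 and 15.5 FPKM in WT and at 15.7, 59.6 and 222 in the treated group (3.83 ± 0.79), so that WT 4 and treated stenosis 1 nearly met. Lyz1 and Lyz2 are near-identical copies, and their reads may have been split between them. Without treated stenosis 1 the adjusted p of Lyz1 was 0.0377, and without that library and WT 4 it was 0.00677, while over all settings it ran up to 0.774.

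Among the other genes of smallest p that stood higher were enzymes of separate pathways. Acot7, a thioesterase that splits acyl-CoA, was at 4.83, 6.76, 3.88 and 8.29 FPKM in WT and at 12.6, 32.9 and 23.5 in the treated stenotic valves (1.74 ± 0.39). Parp2, a DNA repair enzyme that adds poly(ADP-ribose) chains, was at 4.73, 18.7, 12.5 and 9.58 against 22.2, 32.3 and 49.6 (1.59 ± 0.36). B4galnt1, which makes complex gangliosides, was at 0.251, 6.04, 0.982 and 1.12 against 9.72, 15.2 and 56.1 (3.12 ± 0.71). The treated libraries lay above the WT libraries for each of the 3 genes, with adjusted p = 0.243 in limma. Gcat, a mitochondrial enzyme of threonine and glycine breakdown, was barely present in WT (0.162, 0.0656, 0.078 and 0 FPKM) and at 3, 6.29 and 2.35 in the treated group (2.10 ± 0.48). Tbcb, a cofactor of tubulin folding, was at 20.8, 55.5, 38.7 and 31.3 against 82.2, 109 and 87.2 (1.39 ± 0.32, adjusted p = 0.26). Abt1, a nuclear regulator of basal transcription, was at 0, 0.958, 0.789 and 1.3 against 9.26, 3.84 and 16.9 (2.51 ± 0.59). Several of these stood above WT in solvent-treated healthy N1het valves too, by 1.47 for Acot7, 1.31 for Gcat and 2.25 for Abt1, against the same 4 WT libraries.

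Genes that stood lower included several of the valve matrix. Cilp (ENSMUSG00000042254), a matrix protein of cartilage and fibrous tissue, was at 75.9, 28.5, 27.9 and 20.5 FPKM in WT and at 5.69, 6.11 and 1.06 in the treated stenotic valves (-2.90 ± 0.60, adjusted p = 0.243). Mfap4, a glycoprotein of elastic microfibrils, was at 730, 604, 615 and 495 against 338, 118 and 138 (-1.77 ± 0.42, adjusted p = 0.26). Papss2, which makes the sulfate donor for proteoglycan chains, was at 148, 94.9, 75.1 and 74.2 against 36.5, 38.9 and 63.8 (-1.05 ± 0.27, adjusted p = 0.275). For each of these the treated libraries all lay below the WT libraries. In healthy N1het valves the differences from WT were smaller: -0.45 for Cilp, -0.28 for Mfap4 and -0.17 for Papss2 after solvent, and -0.60, -0.18 and -0.02 after XCT790, with the WT libraries shared.

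The other lower genes of smallest p were of mixed kinds. Crispld2, a secreted protein of mesenchymal cells, was at 102, 102, 116 and 96.5 FPKM in WT and at 44.3, 62.5 and 37 in the treated group (-1.13 ± 0.28). Socs2, an inhibitor of growth hormone signalling, was at 22, 25.7, 22.8 and 20.7 against 11.3, 10.7 and 13.4 (-0.90 ± 0.25, adjusted p = 0.344). Sez6l, a membrane protein, was at 23.9, 8.88, 11.2 and 18.1 against 3.84, 4.23 and 2.16 (-1.84 ± 0.39). Both groups were tight and apart for Crispld2 and Socs2. Grrp1 was at 28.9, 14.5, 8.08 and 21.4 FPKM in WT and at 5.9, 0 and 0.0802 in the treated group, yet it also stood 2.69 below WT (log2) in solvent-treated healthy N1het valves. Cntfr, the receptor subunit for ciliary neurotrophic factor, overlapped between the groups, with 93.3, 13.1, 17.5 and 8.16 in WT and 12.2, 0.71 and 1.18 in the treated group (-2.57 ± 0.70). The zinc finger gene Zfp37 (-1.57 ± 0.41) and Scamp3, a carrier protein of secretory membranes (-1.12 ± 0.31), completed the 10 lower genes of smallest p, with adjusted p of 0.275 and 0.35.

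**Figure D2:**
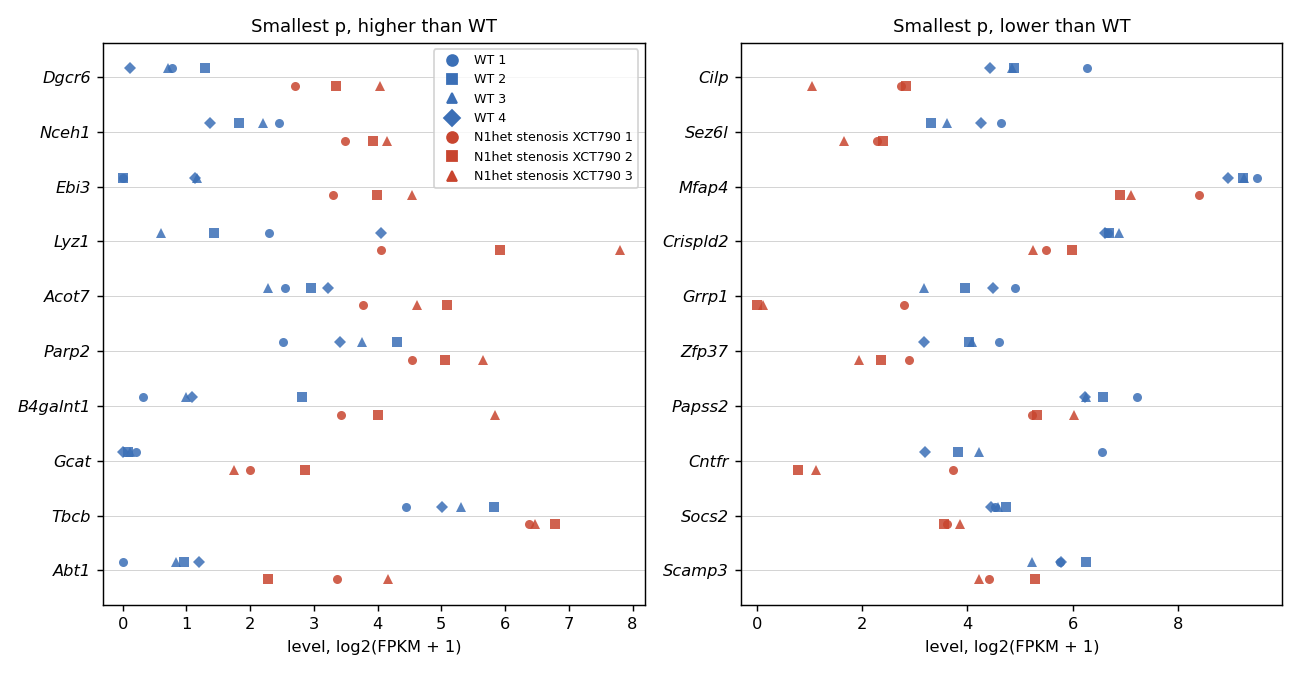
Level as log2(FPKM + 1) (x axis) of the 10 higher and 10 lower genes of smallest p in the 7 libraries; each symbol is 1 library, blue for WT and red for XCT790-treated stenotic N1het valves. The treated libraries lie outside the WT range for all of them except Cntfr and Scamp3, whose groups overlap, and none of these genes had an adjusted p under 0.05.

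Genes of cholesterol synthesis and uptake stood higher in the treated stenotic valves, and their list means did not overlap with WT. Cells make cholesterol from acetyl-CoA through mevalonate and squalene, under control of the transcription factor that Srebf2 encodes, which acts together with NF-Y, a factor that binds CCAAT boxes. Of 22 members tested, 19 stood higher in the treated stenotic valves, with a median log2 difference of 0.79 (0.166 over all genes). At an unadjusted p under 0.05, 7 stood higher (6.76% of all genes did) and 0 lower, and 5 did not overlap with WT (5.24% of all genes). The list mean was 2.16 to 2.42 in WT and 2.98 to 3.44 in the treated group. Without WT 4 and treated stenosis 1 the counts were 20 of 22 and 7, and leaving out single libraries gave medians of 0.62 to 1.00, with 4 genes at that p without treated stenosis 2.

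Promoter windows of 2 members are shown because the list's genes share a CCAAT box in most windows at hand. They are the 250 bases before the transcription start in RefSeq (GRCm38.p6, not the build of the deposited files), read 5′ to 3′ in the direction of the gene. Capitals mark CCAAT or its reverse complement, at 170 and 55 bases before the start of Ebp (chrX:8193513-8193762, minus strand) and at 60 and 27 bases before that of Mvd (chr8:122443423-122443672, minus strand).
Ebp: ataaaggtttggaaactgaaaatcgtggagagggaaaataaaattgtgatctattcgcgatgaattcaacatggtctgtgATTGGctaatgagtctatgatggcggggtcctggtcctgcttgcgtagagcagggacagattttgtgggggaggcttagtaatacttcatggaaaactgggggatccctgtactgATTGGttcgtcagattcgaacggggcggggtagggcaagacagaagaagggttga
Mvd: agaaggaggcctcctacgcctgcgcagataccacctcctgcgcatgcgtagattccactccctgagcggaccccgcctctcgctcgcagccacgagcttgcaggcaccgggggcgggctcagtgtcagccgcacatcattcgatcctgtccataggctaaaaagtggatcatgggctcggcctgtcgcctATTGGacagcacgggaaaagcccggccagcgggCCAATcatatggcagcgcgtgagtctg
Of the 22 members, 14 had 1 or more of 17 windows, and CCAAT stood in 14 windows (82.4%), against 33.8% of all 32851 windows. The search covered both strands and is a description of letters, not of binding. Ebp and Mvd were taken by smallest p against WT, from the members that met the conditions for printing given below. Their difference is therefore not independent of that choice.

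By position in the pathway, the early enzyme Mvd, which makes isopentenyl pyrophosphate, was at 3.75, 2.57, 5.6 and 0 FPKM in WT and at 4.86, 7.74 and 9.39 in the treated stenotic valves (1.32 ± 0.77). Fdps, which builds farnesyl pyrophosphate, was at 1.83, 0.646, 3.84 and 8.96 against 9.09, 14.5 and 5.96 (1.41 ± 0.56). Fdft1, the squalene synthase, was at 4.16, 7.58, 2.76 and 14.3 against 20, 14.5 and 25.7 (1.54 ± 0.54). Of these, only Fdft1 had treated libraries all above the WT libraries. Ebp, a sterol isomerase, was at 0.684, 7.26, 4.22 and 11.3 against 10.4, 10.1 and 10.6 (1.05 ± 0.50), within the WT range. Tmem97, a sterol-regulated protein of the endoplasmic reticulum, was at 0.473, 0, 0.814 and 0 against 10.1, 5.13 and 3.94 (2.44 ± 0.60, adjusted p = 0.26). Its treated libraries all lay above the WT libraries. Tmem97 also stood above the same WT libraries in the other N1het groups, by 1.96 (healthy, solvent), 2.5 (healthy, XCT790) and 3.23 (stenosis, solvent). The median of the whole list in healthy N1het valves was -0.03 after solvent and 0.1 after XCT790. Srebf2 itself was at 7.4, 15.9, 7.99 and 11 FPKM against 17.3, 28.6 and 16.2 (0.92 ± 0.40), also without overlap. Insig1, which retains the Srebf2 product and is itself a target of it, did not stand apart (5.32, 27.9, 8.07 and 8.69 against 16.2, 16.3 and 13.3).

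Genes of cholesterol export and storage were mixed. Of 19 tested, 12 stood higher, with a median of 0.23. At an unadjusted p under 0.05 there were 4 higher and 1 lower (6.76% and 1.93% of all genes). The median was 0.09 without WT 4, and also 0.09 after median-of-ratios scaling, where 2 stood higher at that p. Without treated stenosis 1, 7 stood higher and 0 lower at that p. Npc2, which carries cholesterol out of lysosomes, was at 123, 213, 111 and 113 FPKM in WT and at 222, 243 and 267 in the treated stenotic valves (0.85 ± 0.29). Abca1, the export pump, was at 10.5, 6.32, 8.65 and 5.01 against 12.9, 10.5 and 22.1 (0.89 ± 0.36), where WT 1 met the treated range. Soat1, which esterifies cholesterol, ran the other way at 39.4, 34.7, 15.9 and 48.7 against 12.3, 18.3 and 20.5 (-0.91 ± 0.32). Apoe was high and alike in range, at 1610 to 2710 FPKM in WT and 1720 to 3470 in the treated group.

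Macrophage and monocyte markers stood higher in the treated stenotic valves, by an amount that differed between its libraries. Of 24 markers tested, 23 stood higher with a median of 0.99, and 10 had an unadjusted p under 0.05, all higher (6.76% of all genes). The list mean was 5.15, 5.41, 5.36 and 4.57 in WT and 5.15, 6.36 and 7.01 in treated stenosis 1, 2 and 3, so that the first lay within WT and the other 2 above it. The summed FPKM of the list ran from 1680 to 3000 in WT and from 2500 to 10600 in the treated group. The count of 10 became 3 without treated stenosis 3, 4 without WT 4, 6 without treated stenosis 2, and 18 without treated stenosis 1, and 15 without both WT 4 and treated stenosis 1. In bulk tissue, more cells of a type and more RNA per cell cannot be told apart.

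Lyz2, the lysozyme of macrophages, was at 563, 893, 642 and 629 FPKM in WT and at 1020, 2800 and 4590 in the treated stenotic valves (1.81 ± 0.48, adjusted p = 0.31). Fcgr1, the high-affinity receptor for IgG, was at 2.13, 2.67, 1.72 and 2.46 against 7.98, 8.95 and 15 (1.80 ± 0.58). These 2 genes separated the groups, treated stenosis 1 included. Tyrobp, an adaptor of activating receptors, was at 214, 315, 304 and 160 against 292, 819 and 1070 (1.40 ± 0.47). C1qb, a chain of complement C1q, was at 252, 448, 320 and 156 against 303, 716 and 1020 (1.14 ± 0.41). For both, treated stenosis 1 lay inside the WT range. Leukocyte integrin and signalling genes had the same split: 21 of 22 stood higher with a median of 0.76. At an unadjusted p under 0.05, 5 stood higher (6.76% of all genes). The count of 5 was 1 without treated stenosis 3, 2 without treated stenosis 2, 3 without WT 4 and 10 without treated stenosis 1. Selplg, the selectin ligand of leukocytes, was at 7.66, 8.86, 12.6 and 1.92 FPKM against 14.6, 21.2 and 37.6 (1.64 ± 0.49), with no overlap.

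Chemokines, which draw leukocytes into tissue, had the highest median of the pathway lists. Of 21 tested, 18 stood higher with a median of 1.36 (0.98 to 1.56 when single libraries were left out). At an unadjusted p under 0.05, 7 stood higher (6.76% of all genes). The list mean was 3.58 to 4.21 in WT and 4.51 to 5.34 in the treated stenotic valves, without overlap, and the mean was above WT in treated stenosis 1 too. In 6 genes the treated libraries lay above all WT libraries (5.24% of all genes) and in 1 below (1.64%). Without WT 4 and treated stenosis 1, 16 of 21 stood higher, 4 of them at an unadjusted p under 0.05, and 1 stood lower at that level.

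Ccl4, an attractant of monocytes and T cells, was at 20.1, 59.5, 49.2 and 19.6 FPKM in WT and at 162, 148 and 122 in the treated stenotic valves (2.09 ± 0.67, adjusted p = 0.402). Ccl12, a ligand of CCR2, was at 23.2, 126, 191 and 58.6 against 193, 235 and 451 (1.83 ± 0.60). Cxcl1, which attracts neutrophils, was at 84.3, 6.92, 97.5 and 29.5 against 129, 239 and 124 (2.06 ± 0.79). The groups did not overlap for these 3 genes. Ccl2, the main monocyte attractant, was at 27.2, 26.7, 94.9 and 26 against 120, 92.7 and 205 (1.81 ± 0.51, adjusted p = 0.372), where WT 3 reached the treated range. Cxcl2, another neutrophil attractant, was abundant in both groups, at 425, 381, 356 and 186 against 485, 429 and 767. Pf4, a chemokine of platelets and macrophages, was at 212 to 426 FPKM in WT and at 301, 304 and 652 in the treated group (0.30 ± 0.52).

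Of 23 cytokine and adhesion genes, 16 stood higher, with a median of 0.33 (0.07 without WT 4). At an unadjusted p under 0.05, 1 stood higher (6.76% of all genes). The list mean was 3.18 to 4.17 in WT and 4.22 to 4.25 in the treated stenotic valves, narrowly without overlap. That gene was Il18, a cytokine processed by inflammasomes, at 4.1, 0.268, 9.41 and 2.37 FPKM in WT and at 13.6, 13.9 and 12.7 in the treated stenotic valves (1.89 ± 0.70). Il1b was at 200, 153, 230 and 40.1 against 251, 317 and 243, above WT 3 by a small margin. Vcam1, an adhesion molecule for leukocytes, overlapped between the groups (145 to 226 FPKM against 126, 242 and 310). Of 14 complement genes 12 stood higher with a median of 0.24 (0.10 after median-of-ratios scaling). Their mean was 4.70 to 4.94 in WT and 4.97 to 6.02 in the treated group, also without overlap. C3, the central component, was at 15.9, 41.7, 30.4 and 173 FPKM against 585, 67.4 and 52, highest in the 2 muscle-rich libraries. C2 was at 31.2 FPKM in treated stenosis 1, against 3.28 and 4.11 in the other treated libraries.

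Interferon-stimulated genes had treated stenosis 3 well above the other libraries. Of 32 tested, 31 stood higher with a median of 0.65, 4 of them at an unadjusted p under 0.05 (6.76% of all genes). In 4 the treated libraries lay above all WT libraries (5.24% of all genes). The list mean was 2.67 to 3.40 in WT and 3.24 to 5.10 in the treated stenotic valves. Without treated stenosis 3, 20 of 32 stood higher with a median of 0.13, so the size of the shift rested on 1 library. The count of 4 at an unadjusted p under 0.05 was 9 without treated stenosis 2, 7 without WT 3, and 7 without both WT 4 and treated stenosis 1. Interferons act through the ISGF3 complex, which binds the interferon-stimulated response element, searched here on both strands as GAAA, any 2 bases and GAAA.

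Promoter windows of 2 members with the element, taken by smallest p in the same way, are shown. They are again the 250 bases before the start in RefSeq (GRCm38.p6), with all matches in capitals. Both genes had overlapping copies, at 130 and 124 bases before the start in Bst2 (chr8:71537473-71537722, minus strand) and at 20 and 14 bases in Oas1a (chr5:120907526-120907775, minus strand).
Bst2: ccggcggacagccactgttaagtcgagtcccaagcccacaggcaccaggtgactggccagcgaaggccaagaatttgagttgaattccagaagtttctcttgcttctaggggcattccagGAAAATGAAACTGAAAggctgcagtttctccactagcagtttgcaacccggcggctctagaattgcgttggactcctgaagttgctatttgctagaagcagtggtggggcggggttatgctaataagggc
Oas1a: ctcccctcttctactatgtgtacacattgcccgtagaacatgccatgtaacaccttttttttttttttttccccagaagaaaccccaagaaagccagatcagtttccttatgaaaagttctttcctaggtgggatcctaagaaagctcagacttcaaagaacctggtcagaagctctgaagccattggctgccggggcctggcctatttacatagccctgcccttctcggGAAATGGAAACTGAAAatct
The element stood in 11 of 29 windows of the 23 matched members (37.9%), against 2.98% of all windows. In the cholesterol list it stood in 1 of 17.

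Bst2, a membrane protein that tethers budding virus particles, was at 20.6, 38.1, 45 and 42.9 FPKM in WT and at 52.2, 91.3 and 192 in the treated stenotic valves (1.44 ± 0.41, adjusted p = 0.382). Ifi27l2a was at 154, 175, 154 and 292 against 382, 454 and 1370 (1.73 ± 0.47, adjusted p = 0.33). Both had all treated libraries above WT, with the third far above the rest. Oas1a, which makes the messenger that activates RNase L and has several close paralogs, was at 0.13, 8.62, 5.09 and 2.91 against 6.87, 31.4 and 22.5 (2.18 ± 0.65, adjusted p = 0.383), with overlap. Irf9, the DNA-binding subunit of ISGF3, was at 1.73, 8.14, 3.57 and 6.64 against 8.71, 11.1 and 18.4 (1.28 ± 0.50).

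Class I antigen presentation genes stood higher in 12 of 14 cases with a median of 0.47. At an unadjusted p under 0.05, 2 stood higher (6.76% of all genes), against 4 without treated stenosis 1 and 4 without WT 3. H2-K1, a class I heavy chain, was at 171, 151, 163 and 165 FPKM in WT and at 212, 327 and 398 in the treated stenotic valves (0.89 ± 0.28, adjusted p = 0.386). Its WT values were tight and all below the treated ones. B2m, the shared light chain, was at 1660 to 2430 FPKM against 1780, 2400 and 4000 (0.43 ± 0.24). Class II genes had a median of 0.41, which became 0.01 without WT 4 and 0.09 without treated stenosis 3, and Cd74, the invariant chain, was at 524 to 1520 in WT and 524 to 1830 in the treated group.

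**Figure D3:**
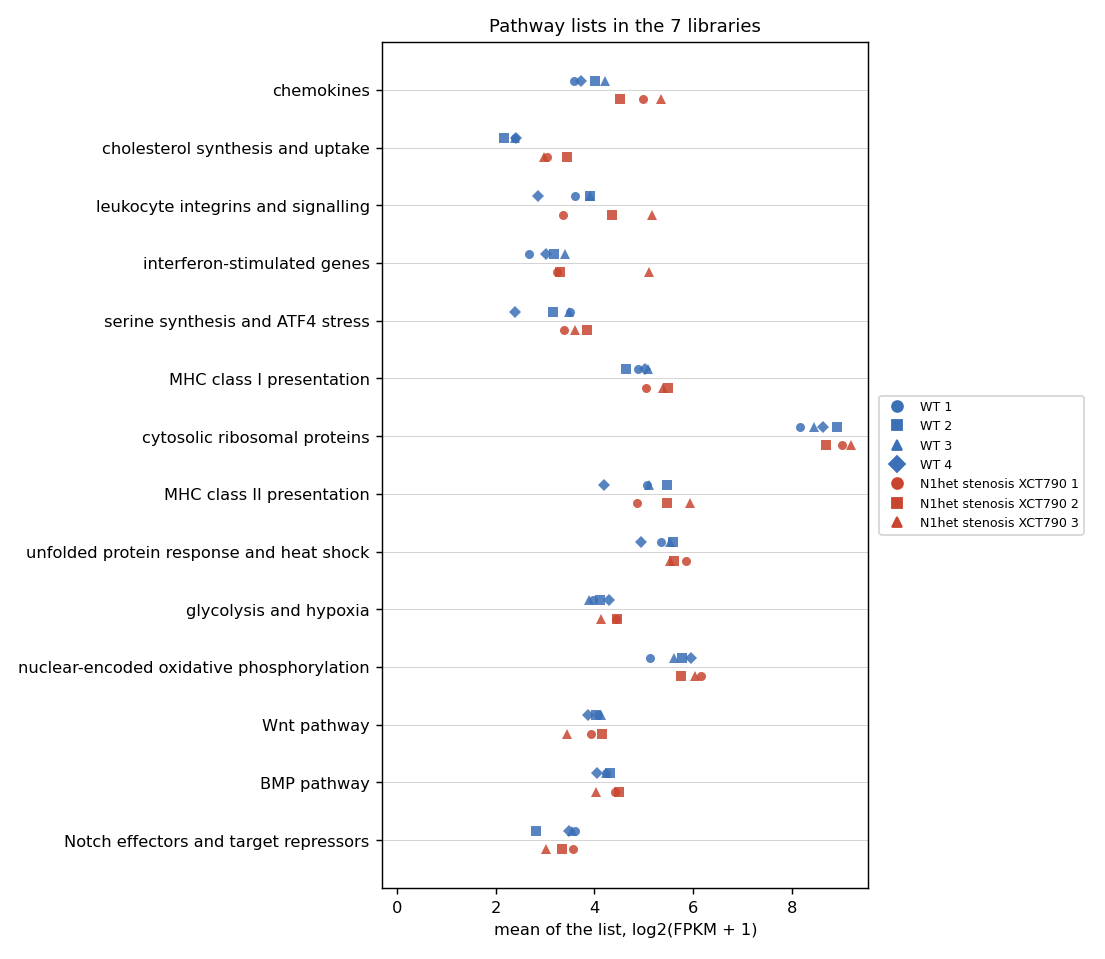
Mean log2(FPKM + 1) of 14 pathway lists (x axis) in the 7 libraries, blue for WT and red for XCT790-treated stenotic N1het valves; each symbol is 1 library. Among the lists plotted, the groups do not overlap for chemokines and for cholesterol synthesis, while the interferon-stimulated mean is high in treated stenosis 3 (5.10).

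Genes of respiration were examined because ERRα, the receptor that XCT790 acts on, is known to activate them. The regulators of the ERR and PGC-1 family had 5 of 11 members higher, a median of -0.11 (0.03 without treated stenosis 2) and 0 at an unadjusted p under 0.05. Of 36 nuclear-encoded subunits of oxidative phosphorylation, 31 stood higher (61.6% of all genes did) with a median of 0.27. At an unadjusted p under 0.05, 5 stood higher (6.76% of all genes). After median-of-ratios scaling these were 25 of 36, 0.12 and 1. The count of 5 was 2 without treated stenosis 1, 2 without WT 1, 1 without treated stenosis 3, and 1 without both WT 4 and treated stenosis 1. In the other N1het groups the median against the same WT libraries was 0.32 (healthy, solvent), 0.1 (healthy, XCT790) and 0.45 (stenosis, solvent). Ndufv2, a subunit of complex I, was at 12.6, 25.6, 13.9 and 14.8 FPKM in WT and at 31.8, 25.2 and 45.6 in the treated stenotic valves (1.00 ± 0.39). Cox6c, of cytochrome c oxidase, was at 33.4, 43.3, 23.9 and 28.2 against 54.8, 38.7 and 69.5 (0.73 ± 0.29). Treated stenosis 2 lay within the WT range for both. Ndufv2 also stood above the same WT libraries by 1.05 (healthy, solvent), 0.42 (healthy, XCT790) and 0.68 (stenosis, solvent). For Cox6c these differences were 0.36, 0.32 and 0.76. The ERR response element TNAAGGTCA stood in 1 of 30 promoter windows of this list (3.33%) and in 1.14% of all windows.

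Fatty acid oxidation and citric acid cycle genes stood higher in 20 of 30 cases (61.6% of all genes did) with a median of 0.25. At an unadjusted p under 0.05, 3 stood higher (6.76% of all genes). Leaving out treated stenosis 1, or WT 1, gave a median of 0.14, and it was 0.11 after median-of-ratios scaling. Without both WT 4 and treated stenosis 1, 17 of 30 stood higher, with 1 higher and 1 lower at that p. Against the same WT libraries the median was 0.39 in healthy N1het valves after solvent, with 26 of 30 higher. It was 0.15 in healthy N1het valves after XCT790 and 0.3 in solvent stenosis. Acadvl, the first dehydrogenase for very long chains, was at 10.8, 11.5, 10.7 and 11.8 FPKM in WT and at 23.4, 18.5 and 26.2 in the treated stenotic valves (0.95 ± 0.37). Acads, the dehydrogenase for short chains, was at 0.901, 3.03, 1.63 and 2.36 against 5.02, 27.1 and 4.82 (1.79 ± 0.57). Both were above WT in all treated libraries. In healthy N1het valves Acadvl was at 15.5 to 48.3 FPKM after solvent and at 9.24 to 33.7 after XCT790. Acads was at 2.42 to 9.91 and at 2.93 to 7.64 there. Acadl, the enzyme for long chains, ran the other way, at 86.3, 47.4, 43.3 and 34.9 against 35.2, 18.1 and 37.6 (-0.77 ± 0.43). The 6 tested mitochondrially encoded genes had a median of -0.83, which was 0.24 (4 of 6 higher) without treated stenosis 2 and -0.37 without WT 4. Their levels overlapped widely: mt-Co2 was at 1510, 6360, 20300 and 27300 FPKM in WT and at 5730, 684 and 11200 in the treated group.

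In glycolysis and the hypoxia response, Eno1, which forms phosphoenolpyruvate, was at 11, 16, 18.1 and 9.89 FPKM in WT and at 24.9, 38.8 and 34.4 in the treated stenotic valves (1.21 ± 0.29, adjusted p = 0.26). Eno1 has pseudogene copies, so its level is uncertain. Vegfa, the endothelial growth factor, ran the other way without overlap, at 37.6, 33.8, 52.2 and 26 against 14.8, 19.2 and 15.4 (-1.10 ± 0.43). The list had 16 of 18 members higher and a median of 0.29. At an unadjusted p under 0.05, 2 stood higher and 1 lower (6.76% and 1.93% of all genes). After median-of-ratios scaling these were 12 of 18, 0.14, 1 and 2. Pgk1, also of glycolysis, was at 8.26, 11.6, 9.88 and 33.8 against 20, 33.4 and 25.5 (0.88 ± 0.42).

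Cytosolic ribosomal protein genes stood higher in 36 of 36 cases by a small amount (61.6% of all genes did), with a median of 0.42. At an unadjusted p under 0.05, 10 stood higher (6.76% of all genes). After median-of-ratios scaling 32 of 36 stood higher with a median of 0.28 and 3 had such a p. The count of 10 was 3 without treated stenosis 3 and 5 without WT 1, against 16 without treated stenosis 2 and 18 without WT 2, and it was 6 without both WT 4 and treated stenosis 1. Rplp0, of the ribosomal stalk, was at 223, 335, 221 and 261 FPKM in WT and at 401, 402 and 519 in the treated stenotic valves (0.77 ± 0.22, adjusted p = 0.382). Rpl38 was at 303, 410, 370 and 361 against 586, 466 and 665 (0.66 ± 0.22). Many of these genes have processed pseudogenes, so their reads may be shared. The serine synthesis and ATF4 stress list had 16 of 18 higher with a median of 0.54, which was 0.36 (11 of 18) without WT 4. The unfolded protein list had 14 of 19 higher with a median of 0.31, which was 0.10 without treated stenosis 1 and 0.16 after rescaling. Atf5, a stress-induced transcription factor, was at 42.8, 13.3, 28.1 and 15.1 FPKM against 43.1, 45.2 and 57.6 (1.08 ± 0.43). Sdf2l1, of the chaperone complex in the endoplasmic reticulum, was at 5.33, 24.3, 17.5 and 0.429 against 39.4, 36.8 and 20.5 (1.99 ± 0.74).

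Notch pathway genes gave few differences beyond 3 members. Of 8 receptors and ligands 3 stood higher, with a median of -0.15, and 1 of them had an unadjusted p under 0.05 (6.76% of all genes). The median ran from -0.47 without treated stenosis 2 to 0.06 without WT 1, and the count was 0 without treated stenosis 1, without WT 4 and without both. That one was Dll1, a ligand, at 7.47, 2.44, 4.64 and 0.992 FPKM in WT and at 14.6, 11.8 and 6.5 in the treated stenotic valves (1.43 ± 0.53, adjusted p = 0.442), with overlap. Jag1, the other main ligand here, was at 16, 14.4, 14.5 and 7.6 against 12.7, 10.2 and 10.8. Of 14 effectors and repressors 4 stood higher with a median of -0.06 (0.05 without treated stenosis 3). At an unadjusted p under 0.05, 1 stood higher and 1 lower (6.76% and 1.93% of all genes). Lfng, which adds sugars to Notch and tunes its ligand choice, was at 0.326, 0, 1.08 and 7.44 against 11.8, 12.2 and 7.35 (2.35 ± 0.70, adjusted p = 0.386), where WT 4 reached the treated range. Heyl, a target repressor, was at 33.1, 11.6, 53.9 and 59.5 against 24.3, 7.29 and 13.9 (-1.24 ± 0.55), with overlap. Hes1, a classical target, was at 37, 28.8, 43.5 and 22 against 38, 23.9 and 13.3 (-0.45 ± 0.37). The RBPJ motif GTGGGAA stood in 3 of 15 promoter windows of the effectors (20.0%) and in 5.42% of all windows.

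In the extracellular matrix, each family had a smaller share of its members higher than the 61.6% of all genes. Collagens stood higher in 13 of 29 cases (median -0.08), proteoglycans in 7 of 19 (-0.23), elastic fibre genes in 8 of 20 (-0.04) and proteases with their inhibitors in 8 of 19 (-0.09). At an unadjusted p under 0.05, 1 collagen, 1 proteoglycan, 2 elastic fibre and 2 protease genes stood lower (1.93% of all genes did), and 0, 0, 1 and 1 stood higher. The medians were small and partly unstable: for collagens it was 0.12 without WT 4, for elastic fibre genes 0.13 without treated stenosis 3 and 0.06 without WT 3, and for proteoglycans it ran from -0.39 without treated stenosis 2 to -0.11 without treated stenosis 3. Lower proteoglycan genes at that p numbered 0 without treated stenosis 3 or WT 2, 3 without treated stenosis 2, 4 without WT 4 and 5 after median-of-ratios scaling. Col1a1 and Col3a1, the main fibrillar collagens, differed by -0.46 ± 0.41 and 0.07 ± 0.39. Col6a3, of the beaded filaments, was at 42.3, 25.8, 32.8 and 33.2 FPKM in WT and at 14, 17.4 and 17.6 in the treated stenotic valves (-0.98 ± 0.38). Dcn, the small proteoglycan decorin, was at 3950, 4700, 4410 and 3370 against 2830, 3500 and 2910 (-0.41 ± 0.16). Mfap5, of microfibrils, was at 72.6, 82.2, 55.9 and 70 against 55.8, 26.6 and 34.9 (-0.88 ± 0.30). The treated libraries lay below WT for Col6a3 and just below for Mfap5, and Dcn overlapped. Fn1, fibronectin, ran the other way at 152, 172, 130 and 215 against 317, 700 and 278 (1.26 ± 0.47). Ctsb, a lysosomal protease also found in macrophages, was at 407, 325, 367 and 199 against 311, 648 and 733 (0.75 ± 0.31), with treated stenosis 1 inside the WT range.

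Bone and mineral genes mostly overlapped between the groups. Without overlap, 1 osteogenic gene stood lower (1.64% of all genes) and 1 phosphate control gene higher (5.24%). The latter was Slc20a1, at 5.59, 5.14, 3.45 and 2.11 FPKM in WT against 5.76, 8 and 6.08 (0.63 ± 0.46). Of 11 osteogenic genes 6 stood higher with a median of 0.27, which ran from -0.13 to 0.59 when single libraries were left out, and 0 had an unadjusted p under 0.05. Spp1, osteopontin, was at 0, 24.9, 12.8 and 13.8 FPKM in WT and at 6.24, 38.7 and 42.3 in the treated stenotic valves (1.44 ± 0.92). Runx2, the regulator of bone cell fate, was at 8.83, 8.42, 2.16 and 0.808 against 0.455, 3.1 and 2.09 (-0.86 ± 0.58). Cartilage genes were higher in 3 of 13 cases (-0.22, and 0.21 without both WT 4 and treated stenosis 1), and genes of phosphate and pyrophosphate control in 9 of 12 (0.37), each with 0 at an unadjusted p under 0.05.

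Among BMP genes, ligands ran in opposite directions. Bmp5 was at 7.34, 17, 14.5 and 4.7 FPKM in WT and at 1.65, 1.08 and 2.62 in the treated stenotic valves (-1.99 ± 0.63, adjusted p = 0.394). Bmp7 was at 0, 0, 0 and 0.443 against 0.912, 3.18 and 7.63 (1.90 ± 0.68). The groups did not overlap for either ligand. Bmpr2, the type II receptor, was at 130, 137, 132 and 111 against 108, 85.9 and 80.4 (-0.48 ± 0.22). Id2, a target of the pathway, was at 51.8, 45.8, 42.4 and 61.1 against 100, 74 and 83.9 (0.77 ± 0.35). The list of 22 had a median of 0.12, which was -0.02 after rescaling. At an unadjusted p under 0.05, 2 stood higher and 3 lower (6.76% and 1.93% of all genes). Without treated stenosis 3 these counts were 0 and 1, with a median of 0.28.

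Wnt genes stood higher in 12 of 30 cases with a median of -0.16. At an unadjusted p under 0.05, 1 stood higher and 3 lower (6.76% and 1.93% of all genes). Without treated stenosis 3 the median was 0.06, and without treated stenosis 2 the lower genes numbered 6. Dkk3, a secreted member of the Dickkopf family, was at 785, 657, 665 and 510 FPKM in WT and at 204, 432 and 444 in the treated stenotic valves (-0.93 ± 0.30, adjusted p = 0.402). Wnt16, a ligand, was at 18.1, 24.7, 22.5 and 20.8 against 10.9, 12.8 and 8.56 (-0.95 ± 0.33). Rspo3, which strengthens Wnt signals at the receptor, was at 41.9, 70.2, 30.2 and 34.4 against 26.2, 30.3 and 17.8 (-0.76 ± 0.35). Dkk3 and Wnt16 did not overlap, and Rspo3 met at the edge. Wnt2b, another ligand, ran the other way at 0, 0.0791, 0.878 and 1.16 against 15.2, 1.28 and 2.52 (1.81 ± 0.63), with the highest value in the mesothelium-rich treated stenosis 1. Aldh1a2, which makes retinoic acid, was highest there as well, at 68.9 FPKM against 6.71 and 4.65 in the other treated libraries and 0 to 3.04 in WT.

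**Figure D4:**
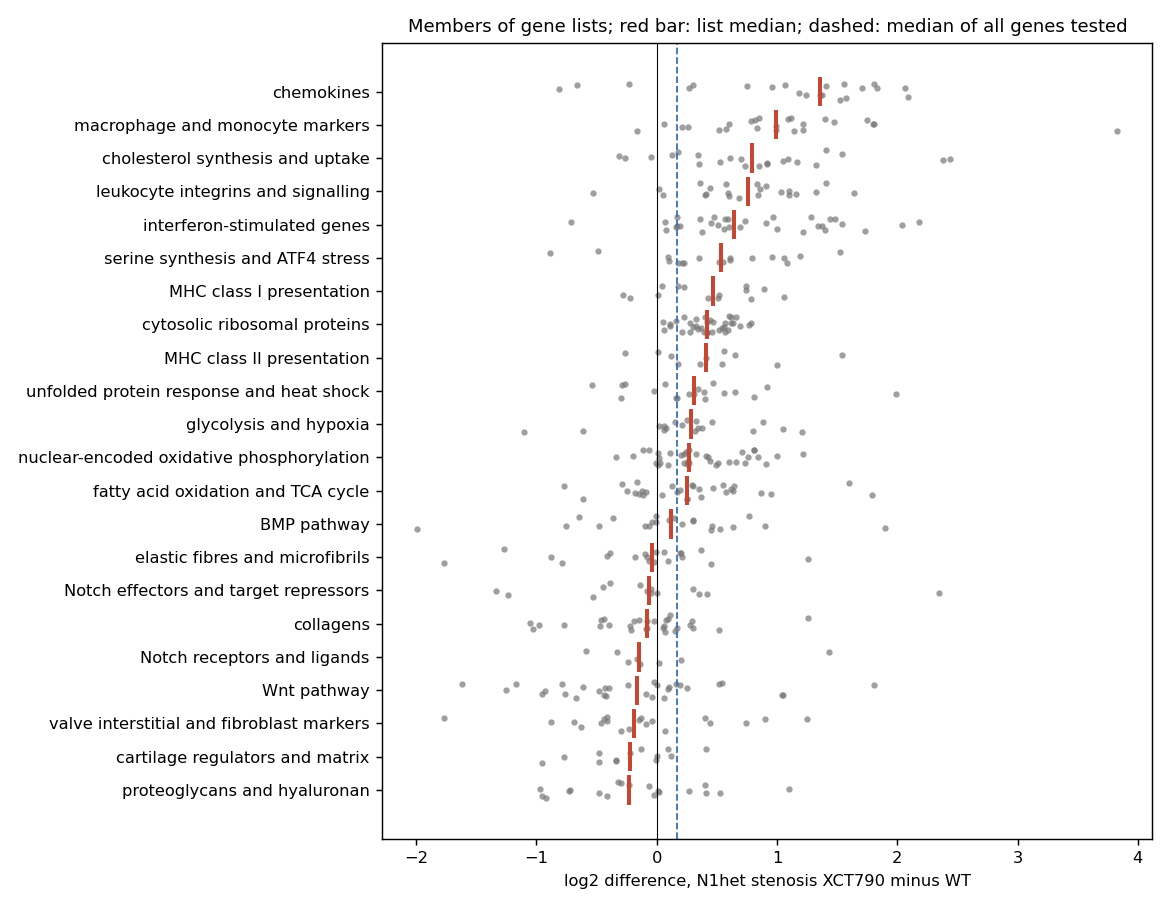
Log2 difference between XCT790-treated stenotic N1het valves and WT (x axis) for the tested members of 22 gene lists; each grey point is 1 gene, the red bar is the median of the list and the dashed line the median of all genes tested (0.166). Chemokines have the highest median (1.36) and proteoglycans the lowest (-0.23).

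Vessel and mural genes held a few members apart. Gja4, a connexin of arterial endothelium, was at 7.91, 11.9, 16.7 and 9.73 FPKM in WT and at 39.4, 68.1 and 19.1 in the treated stenotic valves (1.65 ± 0.51, adjusted p = 0.386). Gja4 stood above the same WT libraries in the other N1het groups too, by 2.08 (healthy, solvent), 1.3 (healthy, XCT790) and 1.66 (stenosis, solvent). Abcc9, the regulatory subunit of a potassium channel in mural cells, was at 77.6, 72.9, 58.2 and 35.5 against 30.5, 23.4 and 34.8 (-0.98 ± 0.30, adjusted p = 0.386). The groups did not overlap for Gja4 or Abcc9, though the margin for Abcc9 was small. Of 9 mural cell markers tested, 4 stood higher and 5 lower. Their median was -0.31, and it ran from -0.34 to 0.45 when single libraries were left out. Kcnj8, another mural cell marker, stood higher without overlap, at 8.87, 11.8, 12.4 and 8.84 FPKM in WT against 16.3, 12.9 and 12.8 (0.40 ± 0.51). Igf2r, the receptor that clears IGF2, was at 39.9, 46.6, 37.8 and 36.9 against 24.4, 27.4 and 22.4 (-0.68 ± 0.24). Dkc1, which binds the telomerase RNA and modifies ribosomal RNA, was at 23.4, 14.9, 20.2 and 18.7 against 12.1, 3.37 and 6.72 (-1.40 ± 0.48). Dkc1 was also below the same WT libraries in the other N1het groups. It was at 1.78 to 10.3 FPKM (healthy, solvent), 5.29 to 14.2 (healthy, XCT790) and 3.43 to 10.8 (stenosis, solvent). The list of telomerase and shelterin genes as a whole had 10 of 16 higher and a median of 0.16 (-0.05 without WT 2). Only Dkc1 stood lower at an unadjusted p under 0.05 (1.93% of all genes did). Melanocyte markers stood higher in 8 of 8 cases with a median of 1.30, which became 0.55 without treated stenosis 3 and 0.33 without WT 4, where Dct, a pigment enzyme, was at 5.82 FPKM against 74.5 to 115 in the other WT libraries and 40.7, 135 and 307 in the treated group.

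Genes picked out earlier for their difference between solvent-treated stenotic valves and healthy valves were chosen on these samples, so their direction is no independent evidence. Of 13 such genes, 6 stood higher and 1 lower than WT in the treated stenotic valves at an unadjusted p under 0.05 (6.76% and 1.93% of all genes). Grk5, a kinase of G protein-coupled receptors, was at 11.2, 20.9, 14.5 and 9.48 FPKM in WT and at 30.3, 37.6 and 31.3 in the treated group (1.24 ± 0.29, adjusted p = 0.26). Nppb, the B-type natriuretic peptide, is listed at 0 in all 4 WT libraries and at 0, 34.6 and 2.88 in the treated group, so no fold is given. The treated values spanned from nothing to a high level. By contrast, Rara, a retinoic acid receptor, was at 21.7, 21.1, 18.1 and 19.8 FPKM in WT and at 25.9, 20.1 and 20.8 in the treated group (0.13 ± 0.26). Shisa2 was at 7.19, 3.05, 10.8 and 9.07 against 5.01, 11.6 and 10.1 (0.25 ± 0.43), and the RNA-binding protein gene Rbm10 differed by -0.15 ± 0.36. For each of these 3 the sign was not the same under every setting tried.

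The treated stenotic valves were then set against solvent-treated stenotic valves, to ask how XCT790 differed from solvent in diseased tissue. In 6 of the 21 libraries the agent field of the labels contradicts the title and description: the 3 solvent stenosis libraries carry XCT790 there, and healthy XCT790 libraries 1 to 3 carry solvent. The titles were followed, and both comparisons below rest on them. Against solvent stenosis, 0 genes (0.0%) had an adjusted p under 0.05 in limma and 0 in voom, and 501 (3.35%) had an unadjusted p under 0.05, 379 higher (2.53%) and 122 lower (0.815%), against 379 with voom (2.53%). Rara, Shisa2, Rbm10 and Coch, given next, were among the genes picked out earlier on these solvent stenosis libraries. Their difference from those libraries is therefore no independent evidence. Rara was at 7.84, 8.79 and 7.98 FPKM in solvent stenosis, below all 3 treated libraries (1.33 ± 0.28, adjusted p = 0.765). Shisa2 was at 0.594, 1.19 and 2.51 (2.04 ± 0.46) and Rbm10 at 4.82, 4.18 and 2.65 (1.69 ± 0.38), again below the treated libraries, as were 6.09% of all genes. Coch, a matrix protein, was at 9.7, 1.98 and 0.807 in solvent stenosis and at 29.2, 26.3 and 9.99 in the treated group (2.43 ± 0.58), the latter against 22.5 to 52 in WT. The authors' deposited table marks 56 genes for this comparison, without the test behind the marks being stated in the sources used here. Rara, Shisa2 and Rbm10 are among them while Coch is not. The marks belong to the same deposited data, so they are no independent evidence either. That deposited table holds no marks for the treated stenotic valves against WT.

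Isoc1, chosen after its values were seen, had a small p in the same comparison. Isoc1 was at 5, 6.91 and 5.79 against 19.7, 18.8 and 25 (1.68 ± 0.39, adjusted p = 0.765). The lists that stood above WT had no such median here: chemokines 0.18, cholesterol synthesis 0.04, interferon-stimulated genes -0.00 and macrophage markers -0.30 (1 of 24 higher), where the median of all genes was 0.089 and 57.6% of them stood higher. Solvent stenosis was itself above the same WT libraries, by medians of 1.18, 0.43, 0.79 and 1.27 for these 4 lists.

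**Figure D5:**
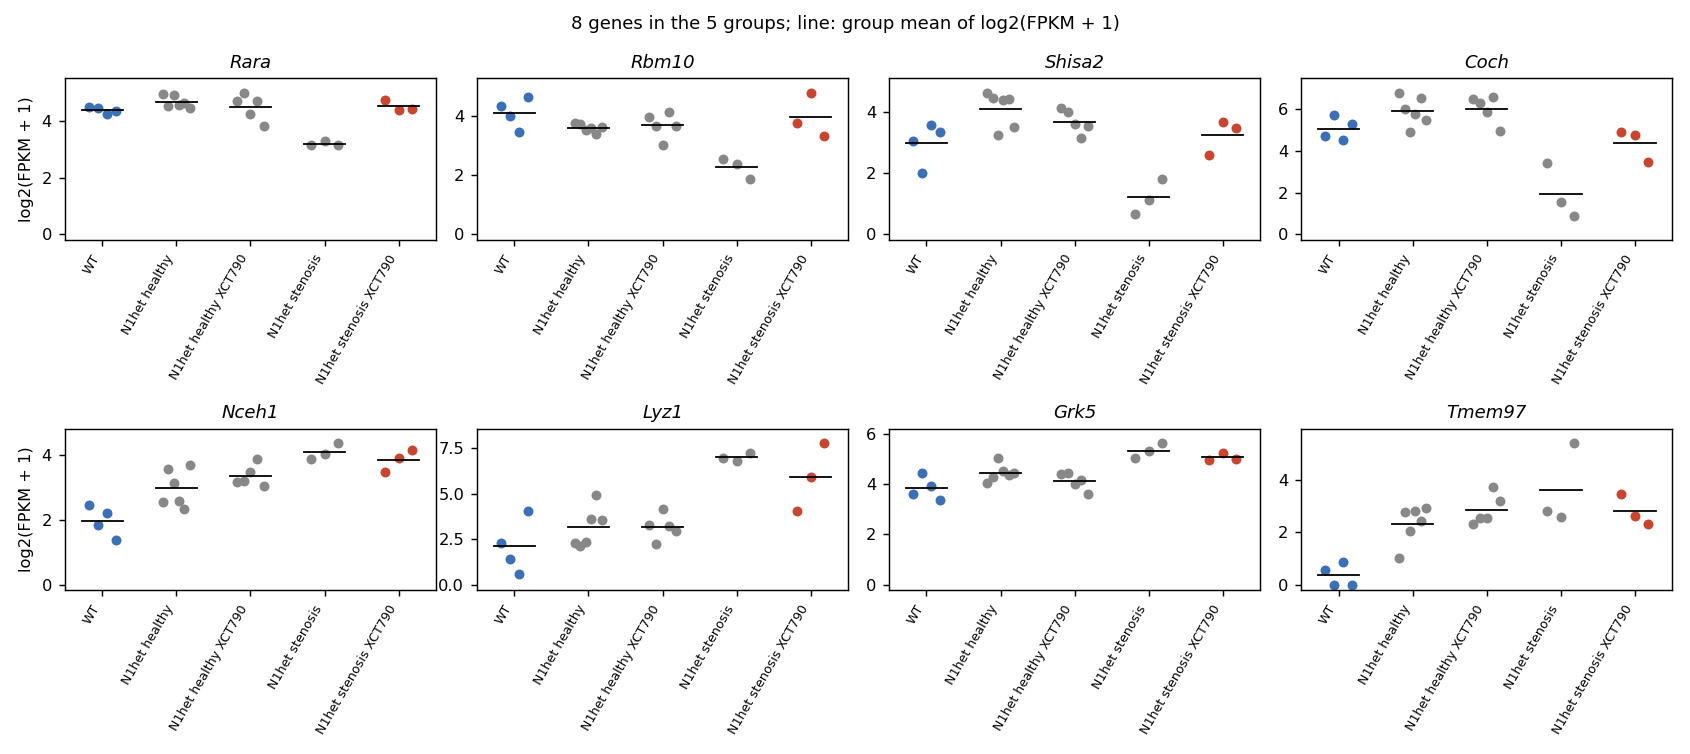
Level as log2(FPKM + 1) (y axis) of 8 genes in all 21 libraries by group; each point is 1 library and the line is the group mean, with WT in blue, XCT790-treated stenotic N1het valves in red and the other groups in grey. Rara, Rbm10, Shisa2 and Coch are lowest in solvent stenosis, while Nceh1, Lyz1 and Grk5 are high in both stenotic groups. The mean of Nceh1 is above WT in both healthy N1het groups too.

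Against healthy N1het valves given the same agent, which differ by disease, 0 genes (0.0%) had an adjusted p under 0.05 in limma and 0 in voom, and 760 (5.08%) had an unadjusted p under 0.05, 396 higher (2.65%) and 364 lower (2.43%), against 897 with voom (5.99%). The genes of smallest p stood lower in the treated stenotic valves. Socs2 was at 20.9 to 36.8 FPKM in the 5 healthy XCT790 libraries and at 10.7 to 13.4 in stenosis (-1.12 ± 0.24, adjusted p = 0.346). Sez6l was at 9.17 to 24.5 against 2.16 to 4.23 (-1.73 ± 0.37), and Crispld2 at 65.7 to 172 against 37 to 62.5 (-1.22 ± 0.27). Mmp19, a matrix metalloproteinase, was at 13.7 to 24.1 against 2.53 to 5.34 (-2.03 ± 0.44). None of these 4 genes overlapped, and 1.96% of all genes were lower without overlap. Ptn, the growth factor pleiotrophin, and Apcdd1, a Wnt inhibitor, were named after their values were seen. Ptn was at 122 to 227 FPKM against 42.8 to 90.2 (-1.45 ± 0.29), and Apcdd1 at 34.8 to 81.9 against 11.2 to 25.4 (-1.82 ± 0.39), both with adjusted p = 0.346. Endothelial markers stood higher in 24 of 24 cases in this comparison (median 0.58, 5 at an unadjusted p under 0.05), Wnt genes had a median of -0.50 with 7 lower at that level, chemokines a median of 0.84 and macrophage markers 0.40, where the median of all genes was 0.04 and 53.4% of them stood higher.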

How the data were processed

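Aortic valves were lysed directly, and total RNA was purified (RNeasy Micro) and amplified into libraries (Ovation RNA-Seq V2), per the labels' protocols. The authors deposited 1 table of 20872 genes with the FPKM of each library, per the file headers, a fragment count scaled to gene length and library size. The mouse build mm9 and the tools HISAT2, SAMtools, Picard and FastQC are named, without versions, per the submitters' processing notes. Which program counted the reads, on which annotation and with which strand setting, was not given in the sources used here. Genes that overlap, lie antisense or are near-identical copies may therefore share reads. The table's other deposited columns, group means and 0 or 1 marks, entered no test.

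Groups follow the sample titles. Differences were tested by limma (version 3.58.1, with statmod 1.5.0, under R 4.3.3) after log2(FPKM + 1) transformation, a scale that understates the difference of low genes. A mean of at least 1 FPKM was required, which kept 14966 genes and left out 5906. Group means of all 5 groups were fitted to the 21 libraries with moderated, mean-dependent and robust variances, without covariates, and p was adjusted by Benjamini and Hochberg within a comparison (threshold 0.05). Values after ± are standard errors. Whole reads were recovered from the steps of the deposited FPKM, and 100.0% of nonzero values were whole within 0.01 reads. These gave the depths and the voom alternatives. The libraries were amplified and carry no molecular identifiers, so reads are not independent molecules. Scripts were tested on simulated data.

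Of 961 genes in 52 lists, 927 were listed in the table (18 matched by identifier) and 847 tested. Genes and lists were chosen with earlier results of these data known. The rule for named genes takes Notch1, Terc, Esrra, then called genes by size of difference. Where fewer than 10 are called in a direction, it takes those of smallest p for which every library lies past the median of the other group, up to 10. It adds up to 4 members of smallest p and 3 of highest level per list. Bare model names were skipped as symbols, and some genes the rule takes are not reported here. Promoter windows came from RefSeq (GRCm38.p6), matched by gene identifier or, where that found none, by symbol. Those printed hold the motif and overlap no annotated exon, and windows on chromosome 18 were passed over for printing. Alternatives covered the pseudocount (0.1), filters, threshold, scaling, libraries, voom, replicate block, depth, muscle markers and leaving out each library.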

Additional observations from a re-analysis of the deposited data

Results flagged for a closer look

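In 170 sets of 4 to 10 values tested for a single value far from the rest, 14 (8.24%) had one, where chance gives about 1 in 20. The sets were the 4 WT libraries and, for 10 genes, the 5 healthy XCT790 libraries, and all 14 were in WT. The treated stenotic group, with 3 libraries, was too small to be tested in this way. WT 4 was low for the ligand gene Jag1 (3.11 on the log2(FPKM + 1) scale, against 3.94 to 4.09), the matrix gene Thbs1 (6.72, against 8.14 to 8.38) and the pigment gene Dct (2.77, against 6.24 to 6.85). It was high for Msln (4.61, against 0 to 0.14), Lrrn4 (0.29, against 0.04 to 0.05) and the mesothelial marker mean (2.48, against 0.01 to 0.26), and for Bmp7 (0.53, against 0). WT 2 was high for Npc2 (7.74, against 6.80 to 6.95) and Clu (8.41, against 7.31 to 7.44) and low for C2 (0.04, against 1.54 to 1.71). WT 3 was high for Ccl2 (6.58, against 4.75 to 4.82) and low for the red blood cell marker mean (3.55, against 5.01 to 5.23). WT 1 was high for Ncor1 (4.99, against 4.68 to 4.71) and was the deepest of the group, at 21.5 M reads against 8.4 to 10.6 M.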

How the results depend on the processing

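The count of genes with an adjusted p under 0.05 against WT, 0 in limma, was 2 (2 higher) with a filter of 1 FPKM in at least 3 libraries (Dgcr6 and the gene model AC157608.2) and 3 (3 higher) without a filter (these and Serpinb2). It was 7 with deep libraries as a covariate (4 higher: Dgcr6, Ebi3, Cstb and AL596181.7; 3 lower: Sez6l, Crispld2 and Cilp), 2 (2 higher) without both WT 4 and treated stenosis 1 (Lyz1 and AC097273.3), and 1 (1 higher) at a threshold of 0.1 (Dgcr6). Leaving out single libraries gave 0 to 3, all higher: 3 without treated stenosis 1 (Dgcr6, Lyz1, AC097273.3), 3 without treated stenosis 3 (Aplp1, mmu-mir-32, AL589742.1) and 0 without any other. Against solvent stenosis the count was 2 without a filter (2 higher), and 0 to 2 when single libraries were left out (0 to 2 higher, 0 to 1 lower, the lower gene being S100a9 without solvent stenosis 1). Against healthy XCT790 valves it was 1 with deep libraries as a covariate (1 lower, Apcdd1), 1 without a filter (1 higher, Serpinb2), 3 without WT 4 and treated stenosis 1 (1 higher; 2 lower, Gstm1 and Cntfr), and 0 to 5 when single libraries were left out (0 to 2 higher, 0 to 4 lower), with 5 without treated stenosis 1 and 2 without treated stenosis 3. Of these, the genes outside the naming rule were named after their values were seen, and the cause of these shifts was not tested. All other settings gave 0 in each comparison. A set of 145 genes was followed across settings. It holds most but not all genes named here, and some that are not named. Of these 145, 127 kept the sign of their difference from WT in all 20 settings.

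With the replicate block, that is, replicate number as a term, 0 genes passed in each comparison, and 983 higher and 352 lower genes had an unadjusted p under 0.05 against WT. Same-numbered libraries did not deviate together (r = -0.071, 0.0157 and 0.0139 over genes), so the numbers were not taken as pairs. Low genes rest on the fewest reads, and up to 26.7% of genes stood at 0 in a compared library. That share did not follow depth alone. It was 24.9% in WT 1 at 21.5 M reads, 21.1% in WT 3 at 8.9 M and 26.7% in WT 4 at 8.4 M. In treated stenosis 1, at 15.5 M, it was 12.2%. The part of depth in it was not tested.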
